A study of Mus musculus with 12 samples.

Results

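The medial layer of the mouse carotid artery was compared between Poldip2-/- mice and littermate controls, gene by gene and by function. RNA came from the vessel that was left after the lumen had been flushed with lysis reagent, so this fraction also held the adventitia and any perivascular tissue on the artery. Genes were taken as measured where the mean of the 2 medial group values was at least 1 FPKM (fragments per kilobase of gene, scaled to the total of mapped fragments), which kept 13082 of the 35275 genes in the deposited table. Poldip2-/- mice were on a C57BL/6 background, were 10 weeks old and carried, on both chromosomes and in every tissue, an allele from which exon 4 of Poldip2 had been excised. Controls were littermates of the same strain and age. The excised allele descends from 1 clone of embryonic stem cells and was made by crossing floxed mice to EIIa Cre, a deleter active in early embryos, followed by backcrossing to C57BL/6J. The labels list 4 medial samples of each genotype. Endothelial RNA in the flushed reagent, with 2 samples of each genotype in the labels, serves below only to show where the medial values differ. The table gives 1 FPKM value per gene for each group, so no value here carries a replicate error, no difference was tested, and "higher" and "lower" describe these pooled values only.

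POLDIP2 was found as a binding partner of DNA polymerase delta and of its sliding clamp PCNA. In vascular smooth muscle it is known for its association with p22phox, the membrane subunit of the oxidase Nox4, and for effects on stress fibres, focal adhesions and mitochondrial metabolism. Smooth muscle cells of the media contract through actin and myosin, hold to a basement membrane by integrins, and secrete elastin and collagens, and they lose much of this contractile programme when they dedifferentiate. The adventitia around them is made of fibroblasts, resident macrophages, nerve endings and small vessels, and it borders on fat.

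Poldip2 itself was listed at 10.3 FPKM in Poldip2-/- mice, against 35.9 FPKM in controls. The log2 ratio, here always that of Poldip2-/- over control after adding 1 FPKM to both values, was -1.71, which places it past the 2-fold line on the lower side. The gene lies on the plus strand of chromosome 11, from 78512193 to 78522736 in the coordinates of GRCm38 that the table uses. Exon 4, at chr11:78516819-78516915, holds 97 of its transcribed bases, and it is shown in capitals between the last 30 bases of exon 3 and the opening 30 bases of exon 5 because it is the stretch that the mutant mice lack.
Poldip2 exon 4: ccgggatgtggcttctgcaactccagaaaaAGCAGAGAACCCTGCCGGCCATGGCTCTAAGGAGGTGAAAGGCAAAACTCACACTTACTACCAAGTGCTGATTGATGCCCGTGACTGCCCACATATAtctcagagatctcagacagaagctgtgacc
FPKM sums reads over all 11 exons, so it also counts mRNA that lacks this exon.

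Tmem199, which encodes a transmembrane protein of the V-ATPase assembly pathway, is read from the opposite strand and starts next to Poldip2. In GENCODE's annotation, 20 bases separate the start of Poldip2 from that of Tmem199. They are shown in capitals at chr11:78512143-78512222 of GRCm38.p6, with the Tmem199 transcript to the left and the Poldip2 transcript to the right, because both genes share this start region while their values differ.
Poldip2 and Tmem199 starts: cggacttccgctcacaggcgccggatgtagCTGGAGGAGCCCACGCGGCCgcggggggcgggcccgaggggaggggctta
Tmem199 was listed at 13.3 FPKM in Poldip2-/- mice and 12.6 FPKM in controls, a log2 ratio of 0.07. On the other side of Poldip2, Tnfaip1 was listed at 37.3 FPKM in Poldip2-/- mice and 41.5 FPKM in controls. Of 22 measured genes of this stretch of chromosome 11, including Poldip2, 1 was past the 2-fold line on the higher side and 2 on the lower side, with a median log2 ratio of -0.09 (-0.03 after centring within bins of gene length). Over all 13082 measured genes, 944 (7.22%) were past that line on the higher side and 1877 (14.3%) on the lower side, with a median of -0.17. The counts of each list below are to be read beside these shares. Besides Poldip2, the neighbours past the line were Lgals9, a galectin of immune and stromal cells, at 38.5 against 138 FPKM in controls, and Phf12, a chromatin-binding repressor, at 8.34 against 3.23 FPKM in controls. Next to the line stood Tmem97, the sigma-2 receptor, at 14.0 FPKM in Poldip2-/- mice against 28.2 FPKM in controls. The other neighbours had log2 ratios between -0.66 (Sdf2) and 0.46 (Unc119).

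Some properties of the values run through all results. The log2 ratio was -0.62 at the lower quartile and 0.27 at the upper quartile, and 59.3% of measured genes differed by less than 1.5-fold between genotypes. On the other scale in the table, group means of read counts scaled by the authors, the median gene stood at 0.03, which is 0.19 higher than by FPKM. FPKM summed over all genes was 414163 in Poldip2-/- mice and 464845 in controls, and the depth of single libraries is not given here. The log2 ratio went with gene length. Genes of under 500 bases had a median of -1.09 and genes of 8000 bases or more a median of 0.43, with the bins between them in order. Of the shortest genes, 52.5% were past the 2-fold line on the lower side, and of the longest genes 21.5% were past it on the higher side. Genes with a mean of 1 to 2 FPKM were on the lower side in 30.1% of cases. In the whole table, 10610 genes were listed at 0 in Poldip2-/- mice and above 0 in controls, and 199 the other way round. The part of length and of low-level signal in the gene lists below was not tested, and medians after centring within 20 bins of gene length are given where they change a reading. Among biotypes, the 716 pseudogenes had a median of -0.98, against -0.15 for 11785 protein-coding genes and 0.07 for 205 lincRNAs. By chromosome, the medians of the autosomes and X lay between -0.28 (chromosome 13) and -0.10 (chromosome 19), and chromosome 11, which carries the mutation, stood at -0.15.

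**Figure D1:**
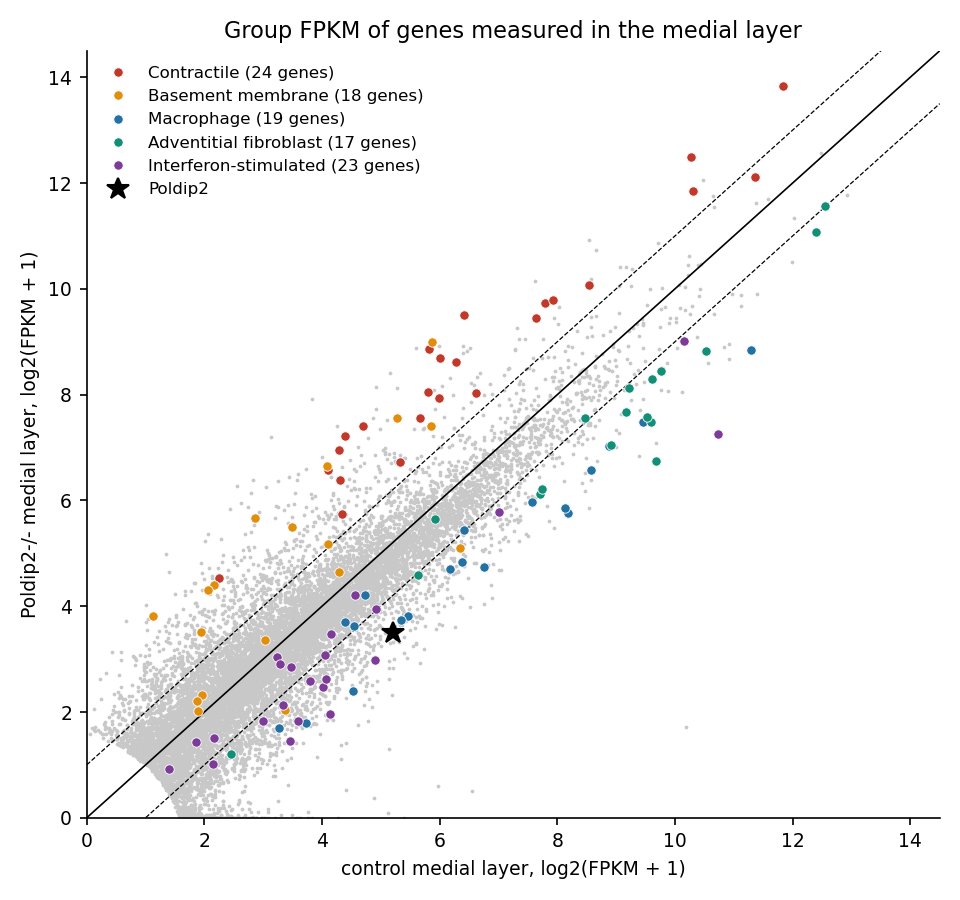
Each grey point is 1 of the 13082 measured genes, with log2(FPKM + 1) of the control medial group on the horizontal axis and of the Poldip2-/- group on the vertical axis. The solid line marks equal values and the dashed lines a 2-fold difference. Colours mark members of 5 gene lists and the star marks Poldip2 (log2 ratio of -1.71), and 23 of 24 contractile genes lie above the upper dashed line while 15 of 19 macrophage genes lie below the lower one.

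**Figure D2:**
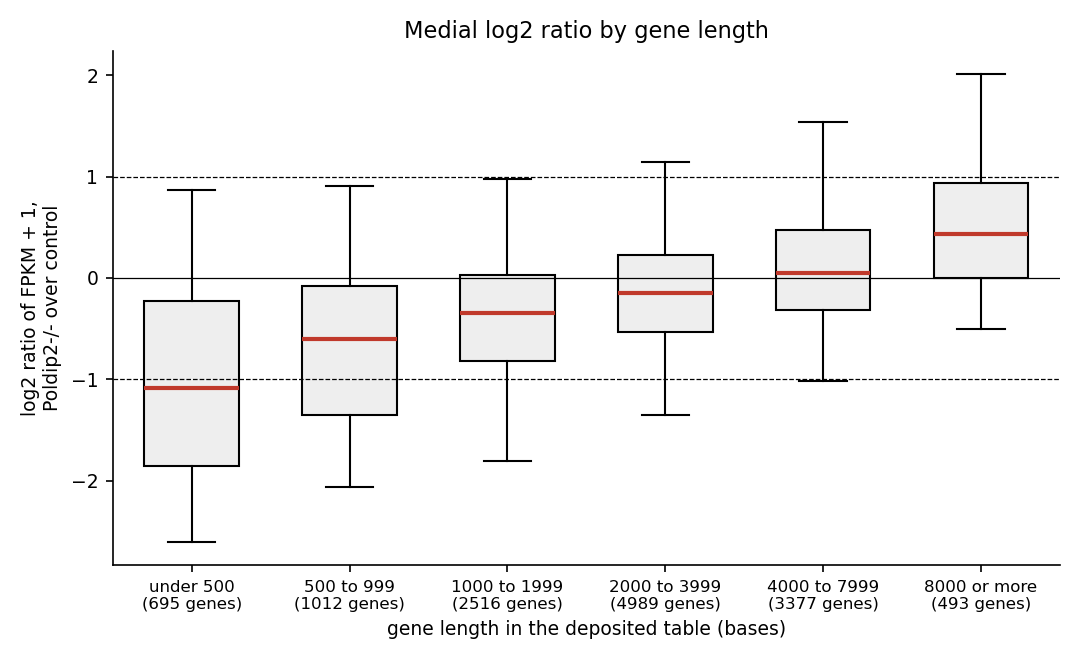
Boxes show the log2 ratio of Poldip2-/- over control medial FPKM in 6 bins of gene length, with the median in red, the quartiles as the box and the 5th and 95th percentiles as whiskers. The median is -1.09 in genes of under 500 bases and 0.43 in genes of 8000 bases or more.

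Contractile genes of smooth muscle were higher as a block. All 24 listed genes were measured, 23 of them were past the 2-fold line on the higher side and none on the lower side, and their median log2 ratio was 2.03 (2.21 after centring by gene length). Their summed FPKM was 35661 in Poldip2-/- mice and 10531 in controls, or 8.61% and 2.27% of all FPKM in each group. In bulk RNA, a larger share of smooth muscle cells and more of these mRNAs per cell cannot be told apart. Acta2, the smooth muscle actin, was listed at 14524 FPKM in Poldip2-/- mice against 3664 FPKM in controls. It ranked highest among protein-coding genes by the mean of the 2 groups. In controls alone, Cst3 (7744 FPKM), Gsn (6013), Fth1 (5694), Dcn (5416) and Sparc (4152) stood above Acta2. Myh11, the heavy chain of smooth muscle myosin, stood at 729 against 83.8 FPKM in controls, which is the largest log2 ratio of the list (3.11). Mylk, the kinase that switches myosin on, was listed at 147.5 FPKM in Poldip2-/- mice and 20.1 FPKM in controls. Ppp1r12b, a targeting subunit of the phosphatase that switches myosin off, was at 82.2 against 18.8 FPKM in controls. Ppp1r14a, the inhibitor CPI-17 that holds this phosphatase back, was at 261 against 96.7 FPKM in controls. Smtn, Lmod1 and Synpo2, which bind actin filaments of contractile cells, had log2 ratios of 2.69, 2.67 and 2.47. Des, the intermediate filament desmin, was listed at 22.1 FPKM in Poldip2-/- mice against 3.76 FPKM in controls. The member with the smallest difference was Myl6, a myosin light chain that many cell types use, at 4438 FPKM in Poldip2-/- mice against 2634 FPKM in controls.

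**Figure D3:**
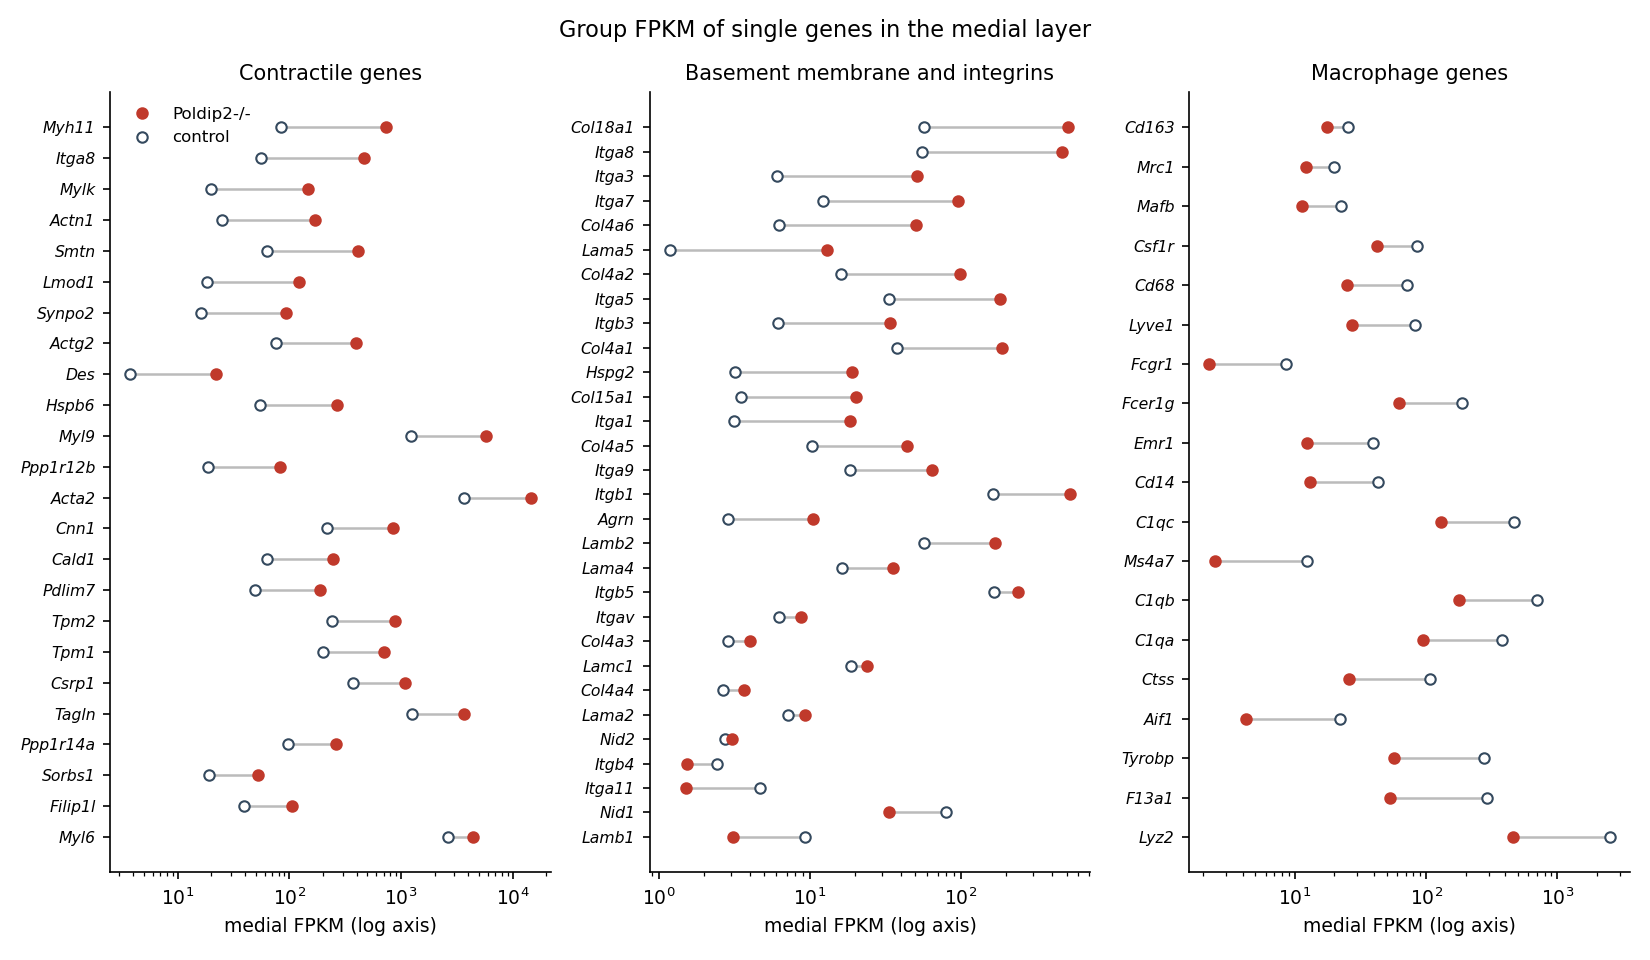
Group FPKM in the medial layer on a log axis, with filled red points for Poldip2-/- mice and open points for controls, for the measured members of the contractile, basement membrane, integrin and macrophage lists, ordered by log2 ratio. Every contractile gene lies to the right in Poldip2-/- mice (Acta2 14524 against 3664 FPKM) and every macrophage gene to the left (Lyz2 461 against 2500 FPKM), while the middle panel holds a few genes of the opposite direction such as Nid1 and Lamb1.

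The serum response factor SRF and its partner myocardin switch on many of these genes through the CArG box, a short AT-rich element. Promoter sequences of 300 bases (250 before the RefSeq start to 50 after it, GRCm38.p6) were found for 20 of the contractile genes, and 3 of them hold a CArG box on either strand, against 1.63% of all 32851 promoters in the same table. These 3 are shown with the element in capitals. A match describes the letters only.
Myl9, chr2:156775273-156775342, plus strand: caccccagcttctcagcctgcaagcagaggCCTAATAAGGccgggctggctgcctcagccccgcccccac
Filip1l, chr16:57549150-57549219, plus strand: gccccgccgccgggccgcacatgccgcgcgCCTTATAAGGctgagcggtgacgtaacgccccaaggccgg
Myl6, chr10:128493020-128493089, minus strand: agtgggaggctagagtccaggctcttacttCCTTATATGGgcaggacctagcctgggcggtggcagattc
The genes with the element had a median log2 ratio of 1.39 and the 17 without it in these 300 bases a median of 2.07. Sequence outside the 300 bases was not searched, so these 17 genes may hold the element elsewhere. Srf was listed at 13.7 FPKM in Poldip2-/- mice against 6.84 FPKM in controls, a log2 ratio of 0.90. Myocd, which encodes myocardin, had a log2 ratio of 1.84.

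Of 21 measured regulators of transcription in smooth muscle, 9 were past the 2-fold line on the higher side and none on the lower side, with a median log2 ratio of 0.83. The largest ratio was that of Heyl, a Notch-driven repressor, at 98.7 FPKM in Poldip2-/- mice against 19.2 FPKM in controls. Mef2c and Mef2d, partners of myocardin, were listed at 22.6 and 28.3 FPKM in Poldip2-/- mice against 7.05 and 8.72 FPKM in controls. Tead3, which reads out the Hippo pathway, had a log2 ratio of 1.89 and Foxf1, a forkhead factor of visceral and vascular muscle, 1.84. The co-activators Mkl1 and Mkl2, which carry actin signals to SRF, stood at 0.28 and 0.05. Klf4, a factor that represses contractile genes during dedifferentiation, was the lowest member at 13.8 FPKM in Poldip2-/- mice against 28.4 FPKM in controls.

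The costamere links actin through the dystrophin complex to laminin outside the cell. Of 19 measured members, 11 were past the line on the higher side and none on the lower side, with a median of 1.29 (0.92 after centring by gene length, since these are long genes). Dmd, which encodes dystrophin, was listed at 21.8 FPKM in Poldip2-/- mice against 2.97 FPKM in controls. Sgca, the alpha-sarcoglycan, stood at 32.6 against 5.32 FPKM in controls, and Dtna, the dystrobrevin that binds dystrophin, at 33.9 against 5.70 FPKM in controls. Utrn, the dystrophin relative utrophin, and Vcl, which encodes vinculin, had log2 ratios of 2.01 and 1.86. Tln2 was the lowest at -0.51.

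Sarcomeric genes of striated muscle were mostly low in both groups. Only 10 of the listed genes were measured, their median was 0.05 (0.17 after centring by gene length), and 2 were past the line, both on the higher side. Myom1, the M-band protein myomesin, was listed at 60.6 FPKM in Poldip2-/- mice against 5.17 FPKM in controls. Actc1, the cardiac actin, stood at 11.2 against 3.81 FPKM in controls. Skeletal troponin Tnnt3 was at 1.33 FPKM in Poldip2-/- mice and 1.86 FPKM in controls. The largest log2 ratio among protein-coding genes whose mean reached 10 FPKM also belonged to a gene named for the sarcomere, Tcap (telethonin), at 241.5 FPKM in Poldip2-/- mice against 13.2 FPKM in controls.

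Focal adhesions anchor stress fibres to the matrix. Of 29 measured genes of focal adhesions and actin crosslinking, 13 were past the line on the higher side and 1 on the lower side, with a median of 0.89. Lpp, the LIM protein of smooth muscle adhesions, was listed at 82.5 FPKM in Poldip2-/- mice against 6.08 FPKM in controls. Tns1, which encodes tensin, stood at 277 against 37.6 FPKM in controls, and Flna, the crosslinker filamin A, at 1139 against 196 FPKM in controls. Enah and Vasp, which lengthen actin filaments, had log2 ratios of 1.96 and 1.64. Ezr, which encodes ezrin, was the member past the line on the lower side, at 5.05 FPKM in Poldip2-/- mice against 14.49 FPKM in controls. Focal adhesion kinase Ptk2 was within the lines at -0.19 and paxillin, Pxn, at -0.73.

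Small GTPases of the cytoskeleton and their regulators were not moved as a block. Of 23 measured genes, 3 were past the line on the higher side and 2 on the lower side, and the median was 0.20 (0.39 after centring by gene length). Rhoa was listed at 262 FPKM in Poldip2-/- mice and 323 FPKM in controls. Its effector kinase Rock1 stood at 69.9 against 17.3 FPKM in controls, and the exchange factor Arhgef17 at 29.3 against 4.62 FPKM in controls. On the lower side were Arhgdib, a GTPase inhibitor of blood cells, at 32.3 against 129 FPKM in controls, and the cofilin kinase Limk1 at 1.83 against 8.34 FPKM in controls. When protein-coding genes were sorted by the letters of their symbol before the number, the families with at least 15 measured members numbered 68. The Arhgef family of guanine nucleotide exchange factors had the highest median of them (18 genes, 0.55) and the Arhgap family of GTPase-activating proteins was among the 3 lowest (25 genes, -0.55). After centring by gene length these medians were 0.48 and -0.75. Arhgef10l and Arhgef2 were past the line on the higher side at 1.56 and 1.48, and Arhgap15 and Arhgap9, which are typical of leukocytes, were lowest at -1.80 and -1.46. The families lower than Arhgap were Aldh, the aldehyde dehydrogenases (17 genes, -0.77), and Olfr, the olfactory receptors (25 genes, -1.71).

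Integrins tie smooth muscle to the matrix. Of 12 measured integrin genes not typical of leukocytes, 8 were past the line on the higher side and 1 on the lower side, with a median of 1.99. Itga8, which is also in the contractile list, was listed at 463 FPKM in Poldip2-/- mice against 55.4 FPKM in controls. The laminin-binding chains Itga3 and Itga7 stood at 50.9 and 95.4 FPKM in Poldip2-/- mice against 6.06 and 12.3 FPKM in controls. Itga5, the fibronectin receptor chain, was at 183 against 33.4 FPKM in controls, and the shared beta chain Itgb1 at 529 against 162 FPKM in controls. Itga11, a collagen-binding chain of fibroblasts, was past the line on the lower side at 1.51 against 4.65 FPKM in controls. Itgav and Itgb5, which pair as a vitronectin receptor, stayed within the lines at 0.42 and 0.53.

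Basement membrane genes had 11 of 18 measured members past the line on the higher side and 2 on the lower side, with a median of 1.56. Col18a1, the collagen that releases endostatin, was listed at 509 FPKM in Poldip2-/- mice against 57.2 FPKM in controls. Type IV collagen did not move evenly across its chains. Col4a1 and Col4a2, the common chains, stood at 187 and 98.9 FPKM in Poldip2-/- mice against 37.8 and 16.1 FPKM in controls. Col4a5 and Col4a6, which smooth muscle adds to them, were at 44.0 and 50.01 FPKM in Poldip2-/- mice against 10.3 and 6.24 FPKM in controls, while Col4a3 and Col4a4 had log2 ratios of 0.37 and 0.34. Among laminins, Lama5 had a log2 ratio of 2.69, and Lamb2 was listed at 168 against 57.0 FPKM in controls. The chain Lamb1 went the other way, at 3.10 FPKM in Poldip2-/- mice against 9.34 FPKM in controls, as did the linker nidogen, Nid1, at 33.2 against 80.1 FPKM in controls.

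The interstitial matrix was mixed. Of 13 fibrillar and associated collagens, 3 were past the line on the higher side and none on the lower side, with a median of 0.41. These were Col5a1, Col6a3 and Col5a2, with log2 ratios of 1.69, 1.66 and 1.11. Col1a1 was listed at 455 FPKM in Poldip2-/- mice and 281 FPKM in controls, and Col3a1 at 1417 and 1384 FPKM. Among 18 elastic fibre genes the median was 0.12 (0.27 after centring by gene length), with 5 past the line on the higher side and 2 on the lower side. Eln, which encodes elastin, was listed at 1937 FPKM in Poldip2-/- mice against 371 FPKM in controls. Ltbp1, which holds latent TGF-beta in the matrix, stood at 186 against 37.4 FPKM in controls. On the lower side were Efemp1 and Mfap5, microfibril-associated proteins of fibroblasts, at 66.8 and 279 FPKM in Poldip2-/- mice against 189 and 595 FPKM in controls.

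Proteoglycans split by gene. Of 12 measured, 3 were past the line on the higher side and 5 on the lower side. Bgn and Prelp, which encode biglycan and prolargin, were listed at 1356 and 291 FPKM in Poldip2-/- mice against 533 and 94.7 FPKM in controls. Acan, the aggrecan core protein, was the third of them at 2.00 against 0.200 FPKM in controls. Dcn and Lum, decorin and lumican of adventitial fibroblasts, stood at 2164 and 346 FPKM in Poldip2-/- mice against 5416 and 864 FPKM in controls, and Podn, Aspn and Omd had log2 ratios of -1.46, -1.40 and -1.32. Matrix proteases and their inhibitors had a median of -0.33 over 17 genes. Adamts8 and Adamts1 were past the line on the higher side at 2.31 and 1.33. Mmp19, Timp1, Mmp3 and Mmp23 were past it on the lower side, among them Mmp3 (stromelysin) at 145 FPKM in Poldip2-/- mice against 389 FPKM in controls.

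**Figure D4:**
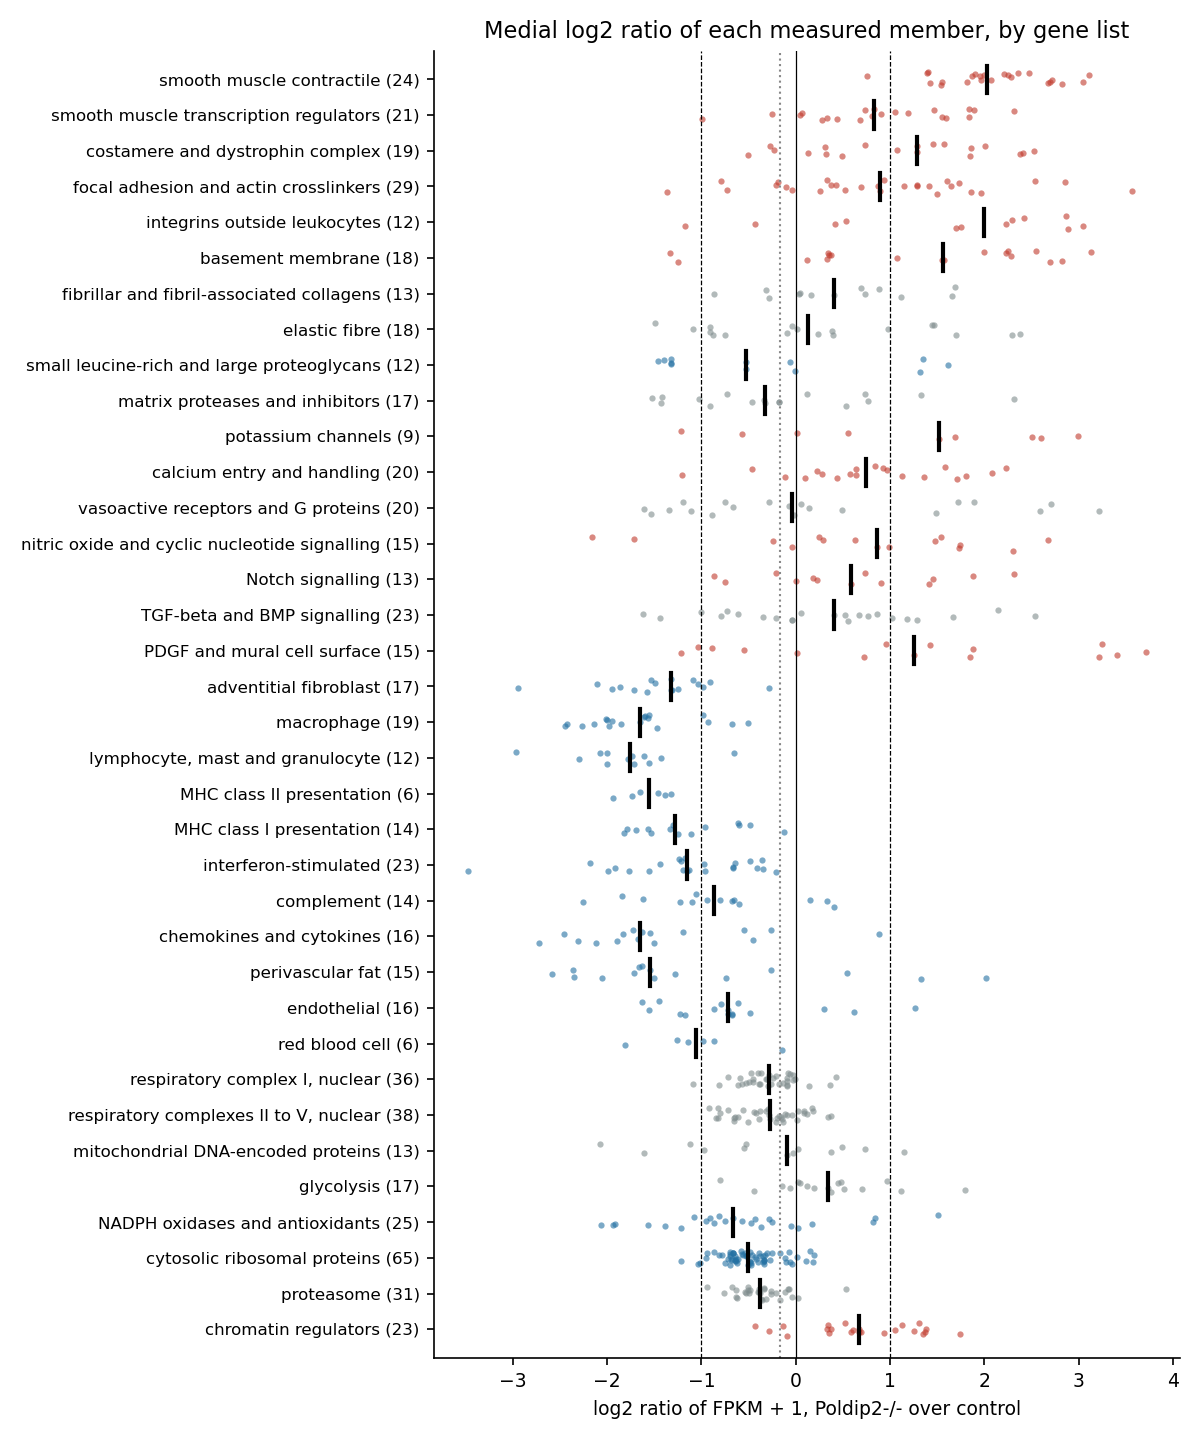
Each point is the log2 ratio of Poldip2-/- over control medial FPKM for 1 measured gene, by gene list, with the number of measured members in parentheses and the list median as a black bar. Dashed lines mark 2-fold differences and the dotted line the median of all 13082 genes (-0.17), and bars run from 2.03 for contractile genes to -1.76 for lymphocyte, mast and granulocyte genes.

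Potassium channels set the resting potential of smooth muscle. Of 9 measured, 5 were past the line on the higher side and 1 on the lower side, with a median of 1.52. Kcnma1 and Kcnmb1, the pore and the accessory subunit of the calcium-activated BK channel, were listed at 18.4 and 94.7 FPKM in Poldip2-/- mice against 2.198 and 15.9 FPKM in controls. Kcnh2, a voltage-gated channel, stood at 37.4 against 3.85 FPKM in controls. Of the ATP-sensitive channel, the pore gene Kcnj8 was past the line on the lower side, at 50.7 against 120 FPKM in controls, while its regulatory subunit Abcc9 was at 36.0 FPKM in Poldip2-/- mice and 35.7 FPKM in controls. Of 20 genes of calcium entry and handling, 7 were on the higher side and 1 on the lower side (median 0.74). Atp2a2, the pump that fills the sarcoplasmic reticulum, was listed at 211 FPKM in Poldip2-/- mice against 59.8 FPKM in controls. Atp2b4, a plasma membrane calcium pump, and Itpr1, the receptor that releases stored calcium, had log2 ratios of 2.23 and 1.71. Cacna1c, the pore of the L-type channel, was at 2.35 against 0.876 FPKM in controls. Trpv4, a cation channel, was the member on the lower side, at 4.41 against 11.5 FPKM in controls.

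Receptors for vasoactive ligands went in both directions. Of 20 measured, 6 were past the line on the higher side and 5 on the lower side, and the median was -0.05 (0.02 after centring by gene length). Those on the higher side included Adra1d, an alpha-1 adrenergic receptor, at 12.5 FPKM in Poldip2-/- mice against 1.07 FPKM in controls, and P2rx1, the ATP-gated channel of sympathetic transmission, at 20.6 against 2.60 FPKM in controls. Htr1b and Tbxa2r, receptors for serotonin and thromboxane, had log2 ratios of 1.89 and 1.72. Rgs5, which shortens G protein signals in mural cells, had the largest ratio at 36.4 against 3.03 FPKM in controls. Those on the lower side included Ednrb, S1pr3, Ptger3 and Lpar1, a lysophosphatidic acid receptor, at 22.2 FPKM in Poldip2-/- mice against 69.7 FPKM in controls. The angiotensin receptor Agtr1a and the endothelin receptor Ednra were within the lines at -0.28 and -0.75.

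The nitric oxide and cyclic nucleotide list had 6 of 15 measured genes on the higher side and 2 on the lower side (median 0.86). Gucy1a3 and Gucy1b3, the subunits of the soluble guanylyl cyclase that senses nitric oxide, were listed at 68.3 and 53.9 FPKM in Poldip2-/- mice against 13.1 and 15.5 FPKM in controls. Mrvi1, a substrate of the cGMP kinase at the calcium store, stood at 58.4 against 8.33 FPKM in controls, and the kinase Prkg1 at 5.52 against 2.60 FPKM in controls. On the lower side were Akap12, a scaffold for protein kinase A, at 17.2 against 80.4 FPKM in controls, and the regulatory subunit Prkar2b at 3.73 against 14.47 FPKM in controls.

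Genes of the mural cell surface and of PDGF signalling had 8 of 15 members on the higher side and 2 on the lower side (median 1.25). Cspg4, the NG2 proteoglycan, was listed at 76.0 FPKM in Poldip2-/- mice against 4.86 FPKM in controls. Ncam1 and Mcam, adhesion molecules, had log2 ratios of 3.40 and 3.25. Pdgfrb, the receptor of mural cells, stood at 74.5 against 27.1 FPKM in controls, while Pdgfra, that of fibroblasts, stood at 22.9 against 48.3 FPKM in controls. Notch signalling had 4 of 13 genes on the higher side and none on the lower side (median 0.59), led by Heyl and by Notch3, the receptor of arterial smooth muscle, at 6.23 against 0.966 FPKM in controls. In TGF-beta and BMP signalling, 6 of 23 genes were on the higher side and 3 on the lower side (median 0.41, or 0.26 after centring by gene length). Over all measured genes, these sides held 7.22% and 14.3%. The feedback inhibitors Smad6 and Smad7 were at 46.4 and 11.9 FPKM in Poldip2-/- mice against 9.73 and 4.69 FPKM in controls. Smad4, the shared mediator, was on the lower side at 10.8 against 35.4 FPKM in controls. Of 14 Hippo effectors and targets 4 were on the higher side (median 0.20, or 0.32 after centring by gene length), among them the target Cyr61 at 451 against 87.0 FPKM in controls, while the effectors Yap1 and Wwtr1 stood at -0.23 and -0.30. Markers of dedifferentiated and bone-like smooth muscle had a median of -0.01 over 13 genes (0.36 after centring by gene length), with Myh10 and Mgp on the higher side and Ly6a on the lower side.

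Genes of adventitial fibroblasts were lower as a block. All 17 listed genes were measured, all had a log2 ratio under 0, 14 were past the 2-fold line on the lower side, and the median was -1.32. Their summed FPKM was 7813 in Poldip2-/- mice and 19414 in controls. Dpt, the matrix protein dermatopontin, was listed at 106 FPKM in Poldip2-/- mice against 820 FPKM in controls. Pi16, a marker of adventitial progenitor-like fibroblasts, stood at 454 against 1482 FPKM in controls, and Cd34 at 131 against 480 FPKM in controls. Col14a1 was the nearest to equal at 49.2 against 59.8 FPKM in controls. The defining fibroblast genes were present in both groups and none was at 0.

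Macrophage genes were lower by more. Of 20 listed, 19 were measured, all of these were under 0 and 15 were past the line, with a median of -1.65. After centring by gene length, the medians of the macrophage and fibroblast lists were nearer to each other, at -1.44 and -1.28. The summed FPKM of the macrophage genes was 1229 in Poldip2-/- mice against 5343 in controls. Lyz2, the lysozyme of myeloid cells, was listed at 461 FPKM in Poldip2-/- mice against 2500 FPKM in controls. C1qa, C1qb and C1qc, which resident macrophages make, stood at 94.2, 177 and 129 FPKM in Poldip2-/- mice against 379, 699 and 468 FPKM in controls. The surface markers Emr1 (F4/80) and Cd68 stood at 12.4 and 25.1 FPKM in Poldip2-/- mice against 39.7 and 71.4 FPKM in controls. Cd163 and Mrc1, scavenger receptors of resident macrophages, differed least at -0.51 and -0.68, and Csf1r, the growth factor receptor of the lineage, was at 42.6 against 84.7 FPKM in controls. Lyve1, listed both here and as an endothelial gene, was at 27.4 against 82.7 FPKM in controls.

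Other leukocytes were scarce in both groups. Of 12 measured genes of lymphocytes, mast cells and granulocytes, 11 were past the line on the lower side (median -1.76), and their summed FPKM with the unmeasured ones was 37.4 in Poldip2-/- mice and 183 in controls. Mast cell proteases Cma1, Mcpt4 and Tpsb2 were listed at 4.72, 4.13 and 5.86 FPKM in Poldip2-/- mice against 21.8, 14.6 and 21.9 FPKM in controls. The immunoglobulin chains Ighm and Igkc had log2 ratios of -2.07 and -2.96. Cd3e, a T cell marker, was at 0.158 FPKM in Poldip2-/- mice and 0.816 FPKM in controls. Chemokines and cytokines had 12 of 16 measured genes on the lower side (median -1.65). Ccl9 and Ccl6, which macrophages make, stood at 15.4 and 51.3 FPKM in Poldip2-/- mice against 107 and 286 FPKM in controls. Il33, an alarmin of stromal cells, was at 24.9 against 127 FPKM in controls, and Cxcl12 at 51.1 against 164 FPKM in controls. Cx3cl1, the membrane chemokine fractalkine, was the only one above 0, at 9.75 against 4.85 FPKM in controls. Of 14 complement genes, 6 were on the lower side (median -0.87), with Cfd (factor D, also an adipocyte product) at 405 against 1932 FPKM in controls and C3 at 100.4 against 216 FPKM in controls.

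Antigen presentation and interferon-stimulated genes were lower together. All 6 measured genes of MHC class II were past the line (median -1.55), including the invariant chain Cd74 at 198 FPKM in Poldip2-/- mice against 544 FPKM in controls. Of 14 measured genes of MHC class I, 9 were past it (median -1.27). The classical heavy chains H2-D1 and H2-K1 were listed at 362 and 157 FPKM in Poldip2-/- mice against 890 and 340 FPKM in controls, and the immunoproteasome subunits Psmb8, Psmb9 and Psmb10 had log2 ratios of -1.57, -1.82 and -1.69. B2m and the peptide transporter Tap2 differed less, at -0.60 and -0.12. Of 23 measured interferon-stimulated genes, 13 were past the line on the lower side and none on the higher side (median -1.15, or -0.83 after centring by gene length). Ifi27l2a was listed at 153 FPKM in Poldip2-/- mice against 1700 FPKM in controls. Irf7, the factor that amplifies interferon responses, stood at 2.88 against 16.6 FPKM in controls, and Isg15, a ubiquitin-like modifier, at 4.55 against 15.2 FPKM in controls. Ifit2, Ifi35 and Stat2 stayed within the lines at -0.21, -0.35 and -0.36.

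Interferon acts on such genes through the interferon-stimulated response element. It was searched as GAAANNGAAA on both strands, with overlapping matches, in the same 300-base promoters. Of 18 interferon-stimulated genes with an entry, 12 (66.7%) hold it, against 3.44% of all promoters in that table. Examples are shown with the matches in capitals, because these promoters share the element while their genes were lower to different degrees.
Isg15, chr4:156200845-156200926, minus strand: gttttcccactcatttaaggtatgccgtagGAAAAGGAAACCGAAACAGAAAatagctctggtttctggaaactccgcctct
Oas1a, chr5:120907500-120907575, minus strand: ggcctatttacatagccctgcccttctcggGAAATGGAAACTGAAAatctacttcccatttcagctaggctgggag
Gbp3, chr3:142559969-142560044, plus strand: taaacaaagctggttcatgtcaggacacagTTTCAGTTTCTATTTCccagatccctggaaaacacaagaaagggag
Ifit1, chr19:34640755-34640843, plus strand: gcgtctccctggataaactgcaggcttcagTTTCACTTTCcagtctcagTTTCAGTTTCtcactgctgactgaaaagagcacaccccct
Oas1a was listed at 1.75 FPKM in Poldip2-/- mice against 9.95 FPKM in controls, Gbp3 at 2.55 against 11.1 FPKM in controls and Ifit1 at 2.55 against 6.96 FPKM in controls. The 12 genes with the element had a median log2 ratio of -1.14 and the 6 without it a median of -1.08.

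Other tissue that can adhere to the artery left traces that were mostly lower in Poldip2-/- mice. Of 15 fat genes, 10 were past the line on the lower side and 2 on the higher side (median -1.54), and their summed FPKM was 630 in Poldip2-/- mice against 2074 in controls. Adipoq (adiponectin) was listed at 24.9 against 131 FPKM in controls and Car3 at 136 against 814 FPKM in controls. The genes on the higher side were Ucp1, the uncoupling protein of brown fat, at 19.4 against 7.08 FPKM in controls, and Plin4, a lipid droplet protein, at 51.7 against 11.99 FPKM in controls. Endothelial genes had 5 of 16 measured members on the lower side and 1 on the higher side (median -0.72), with Pecam1 at 44.7 against 68.7 FPKM in controls and Flt1, a VEGF receptor, at 3.91 against 1.05 FPKM in controls. Red blood cell genes had a median of -1.06 over 6 genes and platelet genes a median of -1.18 over 4 genes, and both came within the 2-fold line after centring by gene length, at -0.58 and -0.87. Pf4, which platelets and some macrophages make, was at 181 against 675 FPKM in controls. Of 6 measured nerve and Schwann cell genes, 2 were past the line on the lower side, and the Schwann cell factor Sox10, under the 1 FPKM minimum, was listed at 0.764 FPKM in Poldip2-/- mice and at 0.0349 FPKM in controls. Thyroid and lymph node genes were close to absent, with Tg at 0.120 against 1.64 FPKM in controls. Xist was at 0.00782 FPKM in Poldip2-/- mice and 0.0271 FPKM in controls, and 4 genes of the Y chromosome were measured in both, with log2 ratios between -0.50 (Ddx3y) and 0.61 (Eif2s3y). What part these other cell types take in the lower values of the immune and stromal lists was not tested.

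POLDIP2 has been tied to the NADPH oxidase Nox4. Nox4 was listed at 107 FPKM in Poldip2-/- mice against 36.7 FPKM in controls, the only one of 25 measured oxidase and antioxidant genes past the line on the higher side. Its partner Cyba, which encodes p22phox, stood at 139 against 269 FPKM in controls. The phagocyte oxidase subunits Cybb, Ncf1 and Ncf4 were past the line on the lower side with log2 ratios of -1.08, -1.94 and -2.06. Gpx3, Gpx4 and Hmox1, which protect against peroxides or break down haem, were on that side too, and the whole list had 7 lower genes and a median of -0.66 (-0.29 after centring by gene length). Sod3, the extracellular superoxide dismutase made by smooth muscle, was at 713 FPKM in Poldip2-/- mice and 402 FPKM in controls.

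Energy metabolism moved little beside these blocks. Nuclear genes of respiratory complex I (36 genes) and of complexes II to V (38 genes) both had a median of -0.28, with 1 gene, Ndufb4, past the line on the lower side and none on the higher side. These genes are short, and after centring by gene length their medians were 0.22 and 0.10. None of 23 genes of the Krebs cycle, the ClpXP protease and lipoylation was past the line in either direction (median -0.20, or 0.04 after centring by gene length). Clpx, the chaperone of that protease, was listed at 17.6 FPKM in Poldip2-/- mice and 23.4 FPKM in controls, and Lias, which makes lipoic acid, at 11.4 and 11.3 FPKM. Proteins encoded by mitochondrial DNA had a median of -0.09 over 13 genes but a wide range, and the median turned to 0.42 after centring by gene length. mt-Nd3, mt-Co3 and mt-Atp6 were past the line on the lower side at 14.98, 42.9 and 25.1 FPKM in Poldip2-/- mice against 66.3, 133 and 55.7 FPKM in controls. mt-Nd6 was past it on the higher side at 145 against 64.8 FPKM in controls. mt-Cytb, the highest of the list in Poldip2-/- mice, stood at 1564 against 1210 FPKM in controls. mt-Co1, the highest of the list in controls, stood at 929 against 1364 FPKM in controls. After centring by gene length none of the 3 genes named on the lower side stayed past the line, with mt-Nd3 at -0.94, mt-Co3 at -0.95 and mt-Atp6 at -0.46. On the higher side, mt-Atp8 (1.15), mt-Nd4l (1.10) and mt-Nd5 (1.02) joined mt-Nd6 (1.81). Before centring, mt-Atp8 and mt-Nd4l were near equal between genotypes and close to the 1 FPKM minimum. They were listed at 1.32 and 1.09 FPKM in Poldip2-/- mice and at 1.294 and 1.14 FPKM in controls. Glycolysis genes had a median of 0.34 over 17 genes (0.52 after centring by gene length). Slc2a1, the glucose transporter GLUT1, and Hk2, a hexokinase, were past the line on the higher side at 29.0 and 4.03 FPKM in Poldip2-/- mice against 7.68 and 1.34 FPKM in controls. Fatty acid oxidation had 2 of 16 genes on the lower side (median -0.29, or -0.15 after centring by gene length), a side that held 14.3% of all measured genes. Among them was the carnitine carrier Slc25a20, at 18.1 against 49.97 FPKM in controls.

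DNA polymerases, for one of which POLDIP2 is named, were within the lines with few exceptions. Of 24 measured genes, 1 was on the higher side and 3 on the lower side (median -0.26, or -0.15 after centring by gene length). Over all measured genes, these sides held 7.22% and 14.3%, so the counts do not set the polymerases apart. Pold1 and Pold2, subunits of polymerase delta, were listed at 6.87 and 25.1 FPKM in Poldip2-/- mice and at 6.44 and 32.7 FPKM in controls. Pcna stood at 25.5 against 40.1 FPKM in controls. Past the line were Polm on the higher side at 7.67 against 2.77 FPKM in controls, and Polb, Pole2 and Poln on the lower side with log2 ratios of -1.01, -1.17 and -1.29. Cell division genes were low in both groups, with 12 measured and a median of -0.84. Cdk1 was at 0.324 against 1.82 FPKM in controls and the arrest gene Cdkn1c at 17.9 against 45.9 FPKM in controls, while Ccnd2, a cyclin of the growth phase, was at 63.7 against 33.9 FPKM in controls.

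Genes of protein synthesis and turnover were slightly lower on the FPKM scale and near 0 after centring by gene length. Cytosolic ribosomal proteins had a median of -0.51 over 65 genes and 0.02 after centring by gene length. Mitochondrial ribosomal proteins had -0.44 over 40 genes and -0.10 after centring. For the 31 proteasome genes these values were -0.38 and -0.03, and for 24 genes of autophagy and the lysosome -0.29 and -0.06. Single genes stood apart, with Rps14 at 303 FPKM in Poldip2-/- mice against 709 FPKM in controls, Ctsl, a lysosomal protease, at 385 against 935 FPKM in controls, and the autophagy kinase Ulk1 at 13.2 against 5.77 FPKM in controls. In the endoplasmic reticulum list (18 genes, median -0.38, or -0.18 after centring by gene length), the chaperone cofactor Sdf2l1 and the stress-induced Herpud1 were past the line on the lower side at 61.3 and 147 FPKM in Poldip2-/- mice against 197 and 335 FPKM in controls. Hspa5, the main chaperone of that compartment, was at 649 FPKM in Poldip2-/- mice and 701 FPKM in controls.

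Chromatin regulators, which are long genes, had 8 of 23 members on the higher side and none on the lower side (median 0.67, or 0.44 after centring by gene length). Kmt2d, a histone methyltransferase, was listed at 4.68 FPKM in Poldip2-/- mice against 0.700 FPKM in controls. Polycomb genes Eed, Ezh2 and Ezh1 had log2 ratios of -0.28, -0.13 and -0.09, and Suz12 one of 0.33. In the splicing list, 5 of 27 genes were on the higher side (median 0.10). Srsf5, a splicing factor, was at 92.6 against 22.96 FPKM in controls, and Srrm2 at 29.5 against 8.18 FPKM in controls, while Srsf1 stood at -0.07. Histone genes had a median of -0.21 over 12 genes, which turned to 0.19 after centring by gene length.

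Immediate early and heat shock genes, which respond within minutes to handling or stress, had 5 of 21 members on the higher side and 1 on the lower side (median 0.40). Fos was listed at 59.7 FPKM in Poldip2-/- mice against 10.5 FPKM in controls, and Btg2 and Zfp36 at 95.02 and 70.4 FPKM in Poldip2-/- mice against 22.4 and 25.9 FPKM in controls. Jun, Atf3 and Nr4a1 were within the lines at 0.46, -0.04 and 0.10. Klf2, a flow-responsive factor, was on the lower side at 36.7 against 81.3 FPKM in controls. Genes often used as references had a median of -0.12 over 14 genes, but Actb, which encodes cytoplasmic actin, was at 4251 FPKM in Poldip2-/- mice against 1417 FPKM in controls.

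Where the mean of a protein-coding gene reached 10 FPKM, the 15 largest log2 ratios were those of Tcap (4.09), Cspg4 (3.71), Dbp (3.64), Lpp (3.56), Ncam1, Lgr6, Myom1, Scube3, Npnt, Igsf9, Mcam, Susd5, Rgs5, Pcdh7 and Itih4. Npnt, a ligand of integrin alpha 8, was listed at 469 FPKM in Poldip2-/- mice against 47.2 FPKM in controls, beside its receptor gene Itga8 above. Susd5 stood at 283 against 29.4 FPKM in controls and Itih4, known as a serum protein of the liver, at 169 against 18.0 FPKM in controls. Pcdh7, a protocadherin, was at 75.4 against 7.31 FPKM in controls. The 15 lowest were Gm10800 (-8.47), Gm10801 (-5.36), Gm21738 (-5.04), Slpi (-4.50), Ifi27l2a (-3.47), Tubb2b, Akr1c18, Plac8, Dpt, Pcsk6, Ren1, Wnt2, Ybx3, Tmem45b and Ccl9 (-2.72). The predicted genes Gm10800 and Gm10801 lie on chromosome 2, are 660 and 504 bases long, and were listed at 2.30 and 0.523 FPKM in Poldip2-/- mice against 1171 and 61.6 FPKM in controls. In the endothelial layer, Gm10800, Gm10801 and Gm21738 were lower too, with log2 ratios of -2.45, -1.57 and -2.14. The origin of the reads counted for these predicted genes was not tested. Slpi, a secreted protease inhibitor, was at 0.298 against 28.4 FPKM in controls, and Ren1, which encodes renin, at 2.39 against 23.4 FPKM in controls. Ybx3, a cold shock domain protein that binds RNA, stood at 16.7 against 117 FPKM in controls. Among other biotypes with a mean of at least 5 FPKM, Mir143hg, the host transcript of the smooth muscle microRNAs miR-143 and miR-145, had the highest ratio, at 146 against 7.81 FPKM in controls (4.06). The pseudogene Fau-ps2 had the lowest, at 0.426 against 92.9 FPKM in controls (-6.04).

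By the mean of the 2 medial groups, the 10 highest genes listed as protein-coding were Acta2, Fth1, Cst3, Gsn, Dcn, Myl6, Myl9, Sparc, Tmsb4x and Lars2. Lars2 was listed at 3169 FPKM in Poldip2-/- mice and 2650 FPKM in controls. Whether all reads counted for it come from its mRNA was not tested. Myl9, the regulatory light chain of myosin, was listed at 5752 FPKM in Poldip2-/- mice against 1239 FPKM in controls. Fth1, the ferritin heavy chain, and Tmsb4x, which binds actin monomers, were near equal at 6044 and 3315 FPKM in Poldip2-/- mice and at 5694 and 3051 FPKM in controls. Cst3 and Gsn, the secreted inhibitor cystatin C and the actin-severing gelsolin, were at 3487 and 3046 FPKM in Poldip2-/- mice against 7744 and 6013 FPKM in controls.

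The thresholds cut through a continuous range. D630045J12Rik, with 1.12 FPKM in Poldip2-/- mice and 0.884 FPKM in controls, was just inside the minimum of 1 FPKM, and Ankrd42, with 0.917 and 1.08 FPKM, just outside it. Fn1, which encodes fibronectin, was just past the 2-fold line at 97.8 FPKM in Poldip2-/- mice against 48.4 FPKM in controls, and Ankrd45 just short of it at 3.32 against 1.16 FPKM in controls. On the lower side, Cmpk2 was just past the line at 4.47 against 9.95 FPKM in controls and Creb3l3 just short of it at 0.454 against 1.91 FPKM in controls.

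In the endothelial layer of the same study many of the lists stood elsewhere, although the difference between layers was not tested. Per the methods, RNA of both layers was purified from the same flushed carotid arteries, and no pairing was used here. Among the 10920 genes measured in both layers, the medial median was -0.13 and the endothelial median 0.05 on the log2 scale. For the members measured in both layers, contractile genes had a medial median of 1.97 and an endothelial median of 0.53. Their endothelial log2 ratios ran from 1.63 for Acta2 (313.3 against 100.8 FPKM in controls) to -0.37 for Filip1l. Myl9 and Tagln were also past the 2-fold line on the higher side there, at 1.62 and 1.59. For basement membrane genes these medians were 1.55 and -0.40, and for integrins 1.99 and -0.08. Fibrillar collagens had a medial median of 0.69 and an endothelial one of -1.03. Macrophage genes were at -1.75 and -0.46, MHC class II genes at -1.55 and 0.52 and interferon-stimulated genes at -1.16 and -0.04, in the same order of layers. Adventitial fibroblast genes were low in both, with a medial median of -1.40 and an endothelial one of -1.27. Mitochondrially encoded genes had a medial median near that of all genes, at -0.09, and an endothelial one of -1.92. Gene length also ran differently, since genes of 8000 bases or more had a medial median of 0.43 and an endothelial one of -0.16.

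**Figure D5:**
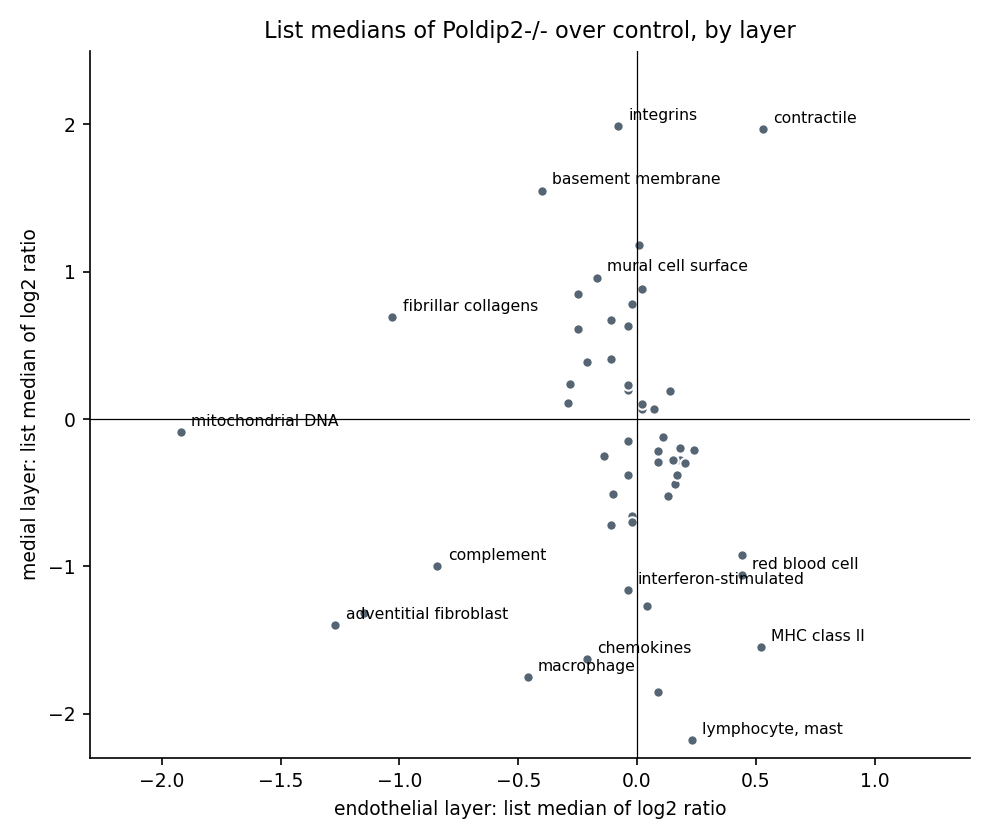
Each point is 1 of the 53 gene lists with at least 3 members measured in both layers, with the median log2 ratio of Poldip2-/- over control over those members, in the endothelial layer on the horizontal axis and in the medial layer on the vertical axis. Contractile genes lie at 1.97 medial and 0.53 endothelial, macrophage genes at -1.75 and -0.46, and mitochondrially encoded genes at -0.09 and -1.92.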

How the data were processed

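RNA was sequenced from the medial layer of carotid arteries, with 4 Poldip2-/- and 4 control samples in the labels. Per the methods, TopHat was used by the authors for alignment to mm9, and the submitters' processing notes also name HTSeq 0.6.1, STAR 2.5, STAR-Fusion, edgeR 3.16.5 and DESeq2 without roles. How replicates were combined is not given in the sources used here. The deposited FPKM has 1 value per group, and the deposited group means of scaled read counts (a signal, of the kind the authors' DESeq2 run outputs) served as an alternative scale. The gene length in bases is an other column deposited by the authors. Columns with the authors' fold changes, p-values and calls were not used. Single-sample values fill 24 further columns, named by animal numbers that the labels tie to no genotype, and these columns were used in no step. The planned fit of edgeR to single-sample counts was therefore not made, and no p-value, SD or depth per library is given. Coordinates are those of GRCm38, since of 34490 gene IDs found in GENCODE M21, 24932 (72.3%) had the same start and end.

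Differences are log2((Poldip2-/- FPKM + 1)/(control FPKM + 1)) for genes with a mean of at least 1 FPKM, which understates differences of low genes. Genes at 1 or more and at -1 or less were counted as past the 2-fold line. Lists (56, with 8 more chosen after their values were seen) were matched by symbol or gene ID, and members and lists were chosen with earlier results of these data known. Genes are named by rule: Poldip2 and its neighbours, up to 6 members of a list with the largest absolute ratio and any past the line against the list's median, the 15 highest and 15 lowest protein-coding genes among those averaging 10 FPKM or more, the 10 most abundant, the extremes of other biotypes with a mean of at least 5 FPKM, and genes next to a threshold. Other members are named for their role, after their values were seen. Where a symbol occurs on several rows (54 symbols), the row with the higher mean was taken. Reads of near-identical copies, such as the haemoglobin, MHC and ribosomal protein genes, may be split by the counting. Promoters come from RefSeq (GRCm38.p6). Computations used Python 3.11.15, numpy 2.4.6, pandas 2.3.3 and matplotlib 3.10.9. The ratio and counting steps were run on group values with known folds, without noise and with almost nothing added in place of 1 FPKM. That run tests the arithmetic only. Some genes of the lists, counted in the totals, are not reported here by name.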

Additional observations from a re-analysis of the deposited data

How the results depend on the processing

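Counts over all genes moved with the settings. With 944 genes higher and 1877 lower as reported, the counts past the line were 475 higher and 588 lower with a minimum mean of 10 FPKM, and 3325 lower with no minimum. Scaled group means gave 1750 higher genes, and 10 lists in place of 6 with a median of 1 or more. Centring within 20 bins of gene length gave 1193 lower genes. The 1.5-fold line gave 1885 higher and 3437 lower genes, and the 4-fold line 172 higher and 299 lower. The share of these genes that was higher moved accordingly, being 33.5% as reported, 22.5% with no minimum, 44.7% with a minimum mean of 10 FPKM, 47% on scaled means, 45.2% after centring on the median gene and 51% after centring by gene length. With genes listed at 0 in 1 group left out, an alternative chosen after seeing the data, 1542 genes were lower. Of 30 lists whose median lay at least 0.5 from that of all genes, none changed side of that median in any of the 8 settings other than the fold lines. Centring on the median gene shifts all lists alike, so that setting could not have moved a list across that median. Lists nearer to it did turn sign after centring by gene length, among them complex I (-0.28 as reported, 0.22 centred), complexes II to V (0.10 centred), proteins of mitochondrial DNA (0.42), cytosolic ribosomal proteins (-0.51 as reported, 0.02 centred) and histones (0.19). Named genes kept their sign wherever they were past the line. No paired analysis was possible because the table's group columns hold 1 value per genotype and the single-sample columns carry no genotype or replicate number. For the same reason, leaving out replicates in turn, the replicate block and DESeq2 were not run.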

Other observations

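Clock genes differed between the medial groups, and they are given here in 2 arms that were set after their values were seen. The hour at which each artery was taken is not given in the sources used here, these mRNAs cycle through the day, and the part of the hour in the values was not tested. This list and those below were chosen after their values were seen and carry no test. In mammals, CLOCK and BMAL1 (Arntl) drive the genes of the output arm, which peak at another time of day than Arntl and Npas2. All 12 measured output genes had a log2 ratio above 0 and 8 were past the 2-fold line on the higher side (median 1.26). Dbp was listed at 30.6 FPKM in Poldip2-/- mice against 1.53 FPKM in controls, Nr1d1 (REV-ERB alpha) at 128 against 23.4 FPKM in controls, Tef at 36.5 against 11.4 FPKM in controls and Per3 at 7.37 against 1.79 FPKM in controls. Of 6 genes of the other arm, none was past the line and 5 were under 0, while Rora stood at 0.99. Arntl was at 16.3 against 24.9 FPKM in controls, Npas2 at 12.6 against 16.2 FPKM in controls and Cry1 at 4.83 against 9.08 FPKM in controls. Cry1 was placed in this arm, while Cry2, with a log2 ratio of 0.50, was placed in the output arm. In the endothelial layer, the medians over the members measured there were 0.39 and -0.48 for the output and the other arm. CLOCK and BMAL1 bind the E-box CACGTG. It was found in the 300-base promoters of 4 of 10 output genes with an entry, against 7.15% of all promoters. Of 6 promoters of the other arm, 1 held it, that of Cry1. The output genes with and without the E-box had medians of 1.26 and 1.30. The promoter of Ciart (2.43 FPKM in Poldip2-/- mice against 0.353 FPKM in controls) holds 3 E-boxes, in capitals.
Ciart, chr3:95882237-95882374, minus strand: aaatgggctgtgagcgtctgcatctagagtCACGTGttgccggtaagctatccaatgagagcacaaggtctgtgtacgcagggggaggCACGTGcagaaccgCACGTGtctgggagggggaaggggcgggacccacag

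Of 15 genes that glucocorticoids induce, with the metallothioneins, 9 were past the line on the lower side and 1 on the higher side. Their median was -1.04, or -0.62 after centring by gene length. Tsc22d3 (GILZ) was listed at 79.8 FPKM in Poldip2-/- mice against 341 FPKM in controls. Fkbp5 stood at 26.2 against 84.1 FPKM in controls and Cebpd at 71.4 against 355 FPKM in controls. Dusp1 was the member on the higher side, at 256 against 117.5 FPKM in controls. Per1, Sgk1, Zbtb16 and Klf9 stood at 0.72, 0.35, 0.50 and 0.30. Of 11 tubulins, 3 were past the line on the lower side (median -0.41, or -0.05 after centring by gene length), with Tuba1a at 388 against 1518 FPKM in controls and Tubb2b at 1.15 against 19.03 FPKM in controls, while Tubb5 was at -0.19. In the IGF axis, 2 of 10 genes were past the line on the higher side and 3 on the lower side (median 0.12). Igfbp4, Igfbp5 and Igfbp6 were lower at -1.46, -1.59 and -2.06, and Igfbp2 and the receptor Igf1r higher at 1.93 and 1.39. Igfbp7 stayed within the lines at 0.90, with 3005 FPKM in Poldip2-/- mice against 1615 FPKM in controls. Aldh1a1, Aldh1a2 and Aldh1a3, which make retinoic acid, were all past the line on the lower side. Of 19 genes of cholesterol and fatty acid synthesis, 2 were on the lower side, Scd1 and Scd2, and 1 on the higher side (median -0.38, or -0.25 after centring by gene length). The nuclear RNAs Malat1 and Neat1 were listed at 484 and 20.6 FPKM in Poldip2-/- mice against 62.8 and 3.63 FPKM in controls.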
